A study of Mus musculus with 6 samples.

Results

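Knockdown of the transcription factor NFIB was compared with its control after 7 days of osteogenic culture of C3H10T1/2 cells, a mouse mesenchymal stem cell line. The comparison set the shNFIB D7 library against the shControl D7 library and took every gene with at least 20 counts in either of them. That rule held 14964 of the 55401 genes in the count table, whether or not a gene changed with time in control cells. RNA-seq was done for 6 conditions with 1 library each: cells carrying a control hairpin (shControl), a hairpin against Nfib (shNFIB) or a hairpin against MLL1 (shMLL1), at confluence (D0) and at day 7 (D7). How the lines were made, and whether each is a clone or a pool, is not given in the sources used here. All D7 cells had been kept in medium with β-glycerophosphate, ascorbic acid 2-phosphate and dexamethasone. Nfib was already lower in the shNFIB line at D0, before the osteogenic stimulus. With 1 library per condition no difference between a pair of libraries could be tested against replicate error. A gene was therefore called higher or lower when it differed at least 2-fold. Where an exact 95% interval is given for a fold, it covers counting error only.

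NFIB belongs to the nuclear factor I family (NFIA, NFIB, NFIC and NFIX), whose members bind DNA as dimers at a palindrome made of TTGGC and GCCAA. The family is known for roles in progenitor cells of brain, lung, muscle and skeleton and in fat cell differentiation. MLL1 is a methyltransferase of histone H3 lysine 4. C3H10T1/2 cells can form bone, cartilage or fat cells depending on the stimulus, and dexamethasone, one component of the osteogenic medium, is also used to induce fat cells.

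The D7 libraries held 29086652 counts (shControl) and 30406559 counts (shNFIB), and the 6 libraries ranged from 21608680 to 34774066. Levels are given below as raw counts or as CPM, which are counts divided by library size after TMM normalisation and scaled to a common total. A fold change of a single gene is the ratio of these levels between the D7 libraries unless a day is named. Of the 14964 genes, 1070 (7.15%) were at least 2-fold higher in shNFIB D7 cells and 1603 (10.7%) were at least 2-fold lower. These shares are the background against which the counts of each gene list below are to be read. At least 4-fold differences were seen for 283 higher and 455 lower genes, and at least 8-fold differences for 107 and 217. The median log2 fold change over all members was 0.01 and 61.0% of members lay within 1.5-fold. The 112 genes just inside the rule, with 20 counts in the library where they were higher, had a median absolute log2 fold change of 1.04, and the 130 genes just outside it, with 19 counts, one of 0.87. The whole counting interval lay past 2-fold for 669 higher and 738 lower genes.

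**Figure D1:**
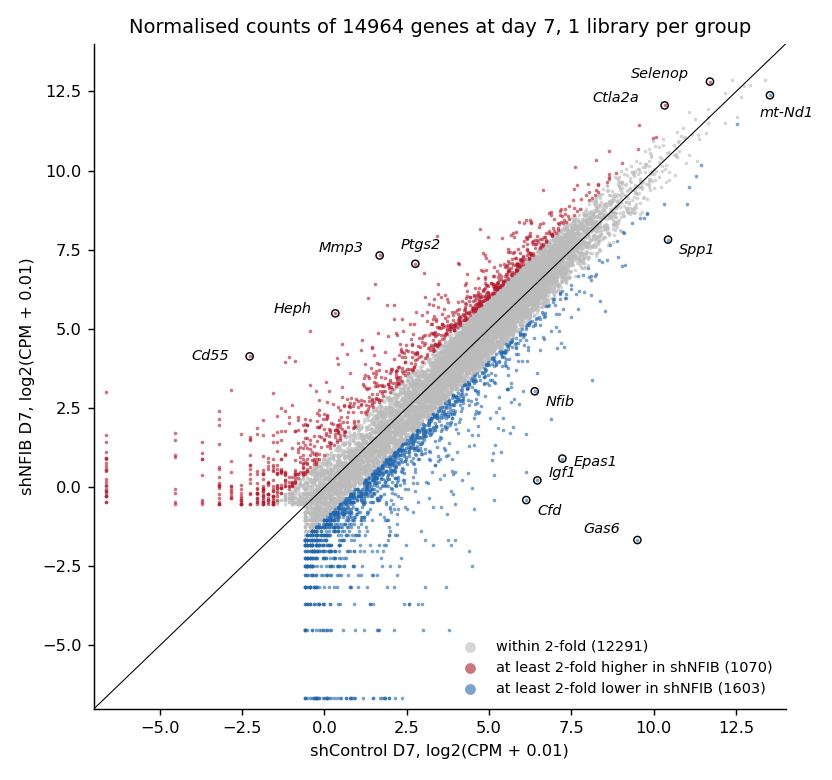
Normalised levels (CPM) of the 14964 genes in the shControl D7 library (x axis) and the shNFIB D7 library (y axis), both as log2 with 0.01 added, so that a gene at 0 lies at the edge. Each point is a gene, and red and blue mark the 1070 higher and 1603 lower genes. Gas6 lies farthest below the diagonal among abundant genes, and Mmp3, Ptgs2 and Heph lie far above it.

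The lower genes were concentrated among genes with few counts. Of the 3052 members with 20 to 99 counts in whichever D7 library held more counts of the gene, 27.0% were lower and 10.6% higher. Among the 6713 members with 1000 or more counts 2.99% were lower and 6.32% higher. Of the members that are not protein-coding 19.4% were lower, against 8.85% of the protein-coding ones. The shControl D7 library also detected more genes, 23172 with at least 1 count against 21689, and long noncoding RNAs summed to 19403 CPM in it and to 14197 CPM in shNFIB D7. The part of this in the lower calls was not tested. Many named genes are therefore given with their counts, and others as a fold or CPM alone.

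Nfib itself had 2546 counts in shControl D7 and 241 in shNFIB D7, against 1774 in shMLL1 D7. It was 10.2-fold lower (interval 8.97 to 11.7), and at D0 it had been at 3715 counts in shControl and 1115 in shNFIB. The related Nfia had 918 and 1558 counts at D7, Nfic 3019 and 1808, and Nfix 5539 and 5388, none of which reached 2-fold. Across the 14 measured genes of the NFI family and the MLL1 complex, Nfib was the only one past 2-fold. Kmt2a, which encodes MLL1, had 2022 counts in shControl D7 and 2780 in shNFIB D7.

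Promoter windows from 250 bases before to 50 bases after the start of transcription (RefSeq, GRCm38.p6) were searched for the family's binding motif. The full palindrome, TTGGC and GCCAA with 5 bases between them, read on both strands, lay in the windows of 12 of 27025 genes (0.0444%). It lay in 3 of the 921 lower genes with a window (0.326%), in none of 719 higher genes and in 1 of 8693 genes within 2-fold (0.0115%). The shorter form, TGGC and GCCA with 5 bases between them, which every full palindrome contains, was in 1.63% of windows of lower genes, 1.25% of higher and 0.978% of those within 2-fold. The single arm TGGCA, counted on either strand and overlapping some of the longer matches, was in 54.7%, 52% and 46.5% of the lower, higher and within 2-fold windows, and in 52.2% of all windows. A match is a description of the letters, and binding was not measured in these libraries. The windows are shown 5′ to 3′ on the gene's strand for the 3 lower genes that hold the full palindrome and for Itga11, Igfbp5 and Ifi44, which hold the shorter form. Capitals mark the 13 bases of the shorter form.
Gstm7, chr3:107931853-107931881, minus strand: ttcgctctTGGCACTCAGCCAagccacca
Prr33, chr7:142506797-142506825, minus strand: tttgcactTGGCCAGGAGCCAacaagcct
Fam160a1, chr3:85746294-85746322, minus strand: cgtgatttTGGCCAGCTGCCAatagtttc
Itga11, chr9:62677748-62677776, plus strand: gcctagacTGGCCTGGAGCCAgggccgcc
Igfbp5, chr1:72874918-72874946, minus strand: gctacaacTGGCTGGCAGCCAggggccgt
Ifi44, chr3:151749978-151750006, minus strand: actgaagtTGGCTCGCTGCCAgcgtgagt

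Of these 6 genes, Gstm7, a glutathione transferase, was the one whose transcript was not detected in shNFIB D7. It had 109 counts in shControl D7, 0 in shNFIB D7 and 54 in shMLL1 D7, and at D0 it had 45, 1 and 67. It was at least 35.2-fold lower at D7 when shNFIB was set at a floor of 3 counts. Prr33 had 97 counts in shControl D7 and 23 in shNFIB D7, and Fam160a1 had 219 and 102. In the same order Igfbp5, an IGF-binding protein, had 943 and 439 counts and Itga11, a collagen-binding integrin, 139 and 10. Ifi44, an interferon-induced gene, was higher in shNFIB, with 894 and 4750.

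Genes of the osteoblast lineage were lower on balance in shNFIB D7. Of 15 measured genes of the list, 7 were lower, 2 higher and 6 within 2-fold, and the median log2 fold change was -0.98 (-0.58 with at least 100 counts). At D0 the same median was 0.01. Dlx5, a homeobox factor of early bone formation, was at 52.5 CPM in shControl D7, 3.69 in shNFIB D7 and 15.9 in shMLL1 D7, and was 14.2-fold lower. Runx2, the factor required for osteoblast formation, stood at 117, 30.4 and 35.3 CPM, while its D0 levels lay between 31.4 and 32.8 CPM in all 3 lines. Runx2 was thus much above its D0 level at D7 in shControl cells, and within 1.5-fold of it in both knockdown lines. Pth1r, the parathyroid hormone receptor, was 4.03-fold lower (3.17 to 5.16), and Enpp1, which makes pyrophosphate, 3.32-fold lower (2.83 to 3.92). Spp1 (osteopontin) was 6.11-fold lower, and Ifitm5 had 79 and 27 counts.

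Some genes of mineralisation went the other way. Phex, an endopeptidase of phosphate balance, had 25 counts in shControl D7 and 244 in shNFIB D7 and was 10.1-fold higher (6.66 to 15.9). Phospho1, a phosphatase of matrix vesicles, was 2.09-fold higher (1.71 to 2.57). Alpl (alkaline phosphatase) had 111 and 215 counts, a log2 fold change of 1.00 that lay just under the threshold. Its counts in shMLL1 D7 were 2, so the knockdown lines stood apart from each other for this gene. Col1a1, the main collagen chain of bone, had 77013 and 37735 counts, a log2 fold change of -0.98 just inside 2-fold. Sp7 (osterix), an osteogenic transcription factor, was below 20 counts in both D7 libraries. So were Ibsp, Bglap, Dmp1 and Mepe, markers of later osteoblasts and osteocytes, and none of these genes was compared.

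Markers of fat cells gave the largest share of lower genes among the lists with at least 10 measured genes. Of 24 measured genes 14 were lower and 2 higher, with a median log2 fold change of -1.24, against -0.04 at D0. That D0 median is pulled towards 0 by genes without a count in either D0 library. At D0 12 of the 24 were below 0 and 6 above, with 4 at least 2-fold lower and 1 at least 2-fold higher. It therefore does not show that the lines were alike for this list at D0. Cfd (adipsin), an adipocyte serine protease, had no count in any D0 library, 2129 counts in shControl D7, 22 in shNFIB D7 and 45 in shMLL1 D7. Cidec, a lipid droplet protein, had 681, 5 and 17 counts at D7 and none at D0, and Plin1, which coats lipid droplets, had 472, 9 and 28. These genes were thus read in quantity in the shControl D7 library alone. Lpl (lipoprotein lipase) had 1084 counts in shControl D7 and 22 in shNFIB D7, a 47.8-fold difference (31.4 to 76.6). Retn (resistin) had 117 counts against 0 and was at least 37.8-fold lower.

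The upstream regulators of fat cells did not move together. Pparg, the master regulator of adipocyte formation, was at 42.0 CPM in shControl D7 and 84.2 in shNFIB D7, 2.01-fold higher (1.88 to 2.15). That call was marginal. Scaling by DESeq2 size factors moved the median log2 fold change of all members by -0.04 and total counts alone by -0.11. Either shift puts Pparg within 2-fold. Cd36, a fatty acid transporter, had 89 and 349 counts. Cebpa, the partner factor of Pparg, was 2.55-fold lower (2.06 to 3.18) and had been lower at D0 as well, with 608 counts in shControl and 232 in shNFIB. Adipoq, Cidea and Pck1 were below 20 counts in both D7 libraries. RNA was taken from whole cultures, so fewer fat or bone cells and less RNA of these genes per cell cannot be told apart.

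Cartilage and tendon genes were also lower on balance, with 8 of 16 measured genes lower and 2 higher. Here the median log2 fold change was -0.88 at D7 (-0.40 with at least 100 counts) and already -0.81 at D0. Comp, a cartilage matrix protein, had 767 counts in shControl D7, 150 in shNFIB D7 and 321 in shMLL1 D7. Col2a1, the collagen of cartilage, had 334, 52 and 54 counts at D7, down from 7124 and 5762 in shControl and shNFIB at D0. Col9a1 had 58 counts in shControl D7 and none in either knockdown library at D7. Prg4 (lubricin), a joint lubricant, was 1 of the 2 higher genes, at 335 counts in shControl D7 and 2520 in shNFIB D7. It was 7.76-fold higher (6.92 to 8.72), and it had been at 29 and 1727 at D0.

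Extracellular matrix genes differed in both directions. Among elastic fibre genes Eln (elastin) was 15.3-fold lower (11.1 to 21.6), with 631 and 40 counts, and Fbn2 (a fibrillin) 4.83-fold lower, with 722 and 145. Col27a1 had 1519 counts in shControl D7, 96 in shNFIB D7 and 1928 in shMLL1 D7, so at D7 it was low in shNFIB cells only. Fn1 (fibronectin) was 3.73-fold higher, with 22780 and 82349 counts. The basement membrane genes Lamc1 and Nid1 were 3.30-fold and 2.99-fold higher, and Thbs1 (thrombospondin) 4.45-fold higher. In shControl cells Fn1 had stood at 181551 counts at D0. Over the matrix protein list 7 of 39 measured genes (17.9%) were higher and 7 (17.9%) lower. Of 32 collagen chains 3 (9.4%) were higher and 7 (21.9%) lower. Among all members 7.15% were higher and 10.7% lower.

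The largest difference among genes with at least 1000 counts in either D7 library was that of Gas6, a vitamin K-dependent ligand of the AXL, TYRO3 and MERTK receptor kinases. It had 22101 counts in shControl D7, 9 in shNFIB D7 and 17486 in shMLL1 D7. At D0 the counts were 813, 2 and 359. Gas6 was thus nearly silent in both shNFIB libraries and abundant at D7 in both other lines, a 2381-fold difference (1254 to 5210). Axl, one of its receptors, had 12093 counts in shControl D7 and 25463 in shNFIB D7.

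Other genes with large decreases included transcription factors and secreted proteins. Epas1 (HIF-2α), an oxygen-regulated transcription factor, was at 149 CPM in shControl D7, 1.86 in shNFIB D7 and 18.6 in shMLL1 D7, an 80.3-fold difference between the first pair (61.6 to 107). Mdfi, an inhibitor of myogenic factors, had 393 and 3 counts, a ratio of 127 (43.2 to 619). Igfbp3, a carrier of insulin-like growth factors, had 235 and 2, a ratio of 114 (31.2 to 946). G0s2, an inhibitor of fat breakdown, had 243 and 1 counts, with 44 in shMLL1 D7. Negr1, a neural adhesion molecule, had 597 counts at D0 and 154 at D7 in shControl and none in either shNFIB library, at least 49.8-fold lower at D7. Twist2, a factor that restrains osteoblast maturation, was 7.21-fold lower and Zbtb16, which glucocorticoids induce, 9.45-fold lower.

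**Figure D2:**
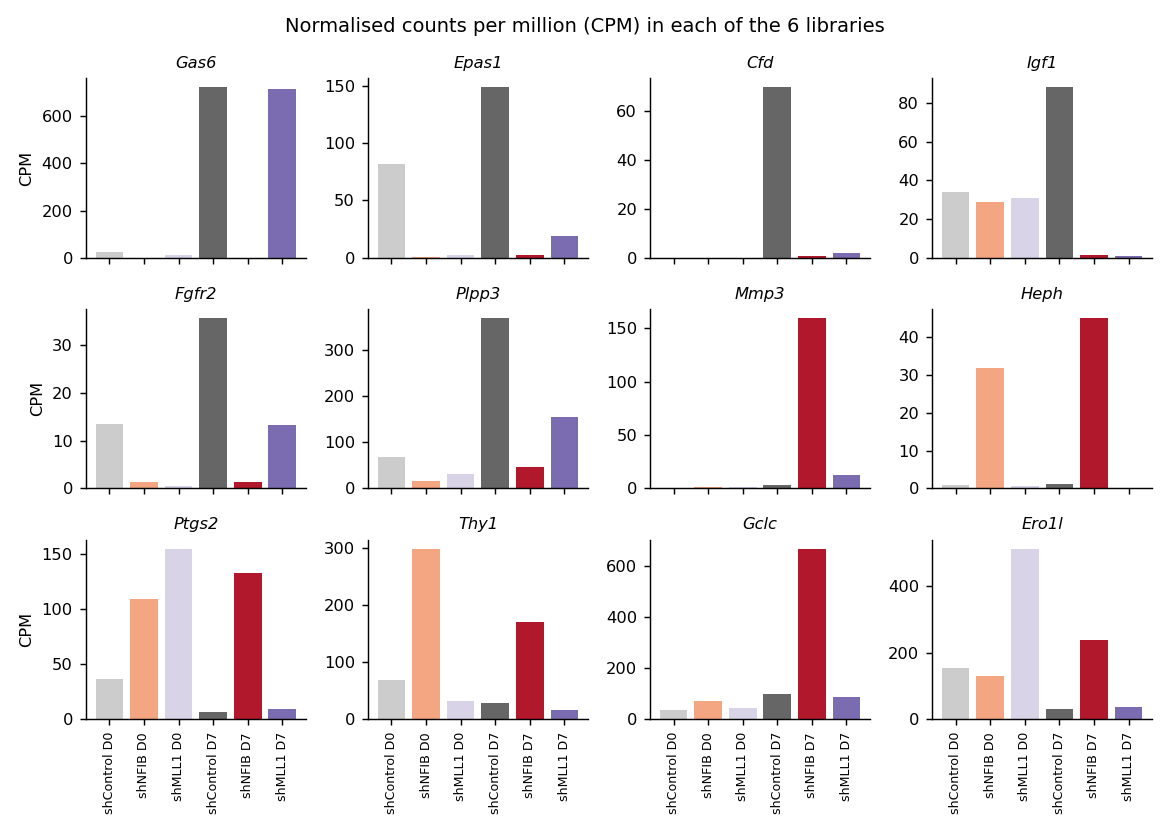
Normalised levels (CPM, y axis from 0, own scale per gene) of 12 genes in each of the 6 libraries, 1 bar per library, without replicates. Gas6 is near 0 in both shNFIB libraries and high in shControl D7 and shMLL1 D7, while Heph is high only in the shNFIB libraries and Gclc only in shNFIB D7.

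In the insulin-like growth factor system 5 of 14 measured genes were lower and 2 higher. Igf1, the main ligand, was at 88.3 CPM in shControl D7 and 1.15 in shNFIB D7, 76.7-fold lower (54.8 to 111), and at 1.07 in shMLL1 D7. At D0 its levels had been 33.9, 28.9 and 30.8 CPM in the 3 lines, so the lines separated only after D0. Igf1r, the receptor, had 1876 and 884 counts. The higher genes were Stc2 with 5 and 94 counts and Pappa with 155 and 570. Pappa encodes a protease that cleaves IGF-binding proteins, and Stc2 encodes an inhibitor of that protease.

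Among fibroblast and platelet-derived growth factor genes 6 of 23 were higher and 3 lower. Among the receptors Fgfr2 had 1084 counts in shControl D7 and 38 in shNFIB D7, 27.7-fold lower (20.0 to 39.3), and had been low at D0 with 431 and 42. Fgfr3 was 3.62-fold lower, while Fgfr1, Pdgfra and Pdgfrb were within 2-fold, with log2 fold changes of 0.55, 0.09 and 0.36. The ligands Fgf10 and Pdgfc were 2.93-fold and 4.05-fold higher. Etv1, an ETS factor downstream of these receptors, was 7.24-fold higher (5.95 to 8.87).

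In the Wnt pathway 8 of 38 measured genes (21.1%) were lower and 3 (7.9%) higher, with a median log2 fold change of 0.00. Among all members 10.7% were lower and 7.15% higher. Sfrp2, a secreted Wnt antagonist, had 133 counts in shControl D7 and 0 in shNFIB D7, at least 43.0-fold lower, and 682 and 2 at D0. Rspo2, a secreted Wnt agonist, had 14826 counts in shControl D7, 4541 in shNFIB D7 and 3557 in shMLL1 D7. The feedback inhibitor Nkd1 had 84 and 2 counts, and the receptors Fzd9 and Fzd3 differed in opposite directions, 6.45-fold lower and 6.05-fold higher. In the BMP pathway 4 of 21 genes were lower and 3 higher. Bmp4 was 2.71-fold lower (2.52 to 2.91) and Fst, which binds activins, 3.97-fold lower. Grem1, a secreted BMP antagonist, was 3.88-fold higher (3.60 to 4.18). Other BMP-binding proteins, Chrdl1 and Bmper, were lower, with log2 fold changes of -1.19 and -1.27, and the receptor Bmpr2 was higher by 1.20. The antagonists thus did not move together, and the list as a whole had a median of 0.17.

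**Figure D3:**
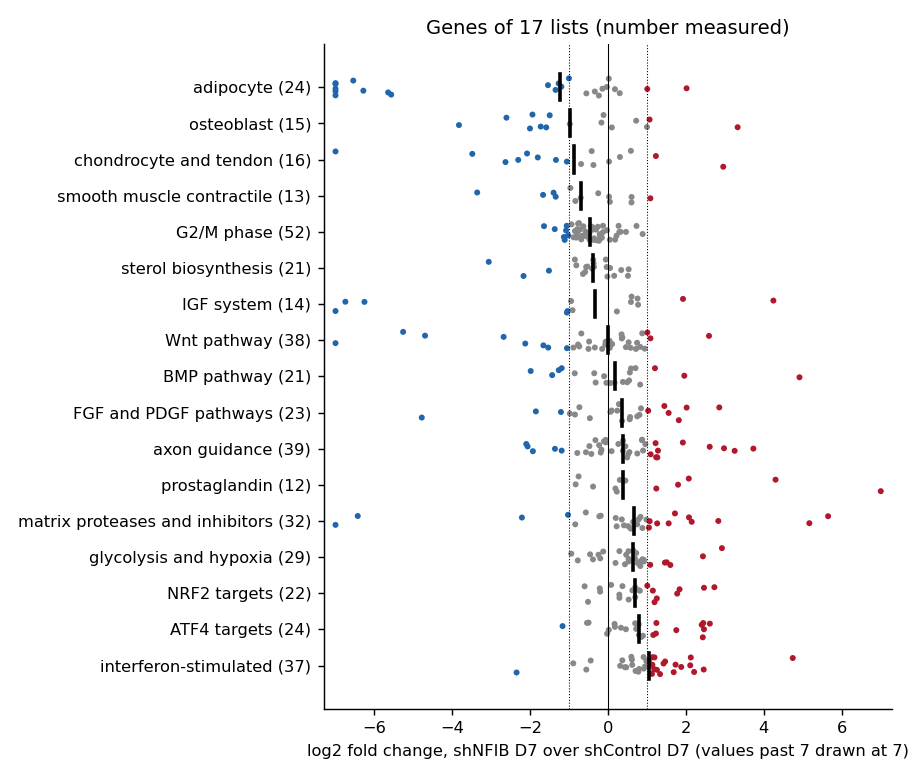
Log2 fold change of shNFIB D7 over shControl D7 for each measured gene of 17 lists, 1 point per gene, with the list's median as a black bar and dotted lines at 2-fold. Values past 7 are drawn at 7. The adipocyte and osteoblast lists lie mostly to the left, with medians of -1.24 and -0.98, and the interferon list lies mostly to the right, with a median of 1.05.

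Genes for matrix-degrading enzymes were among those with the largest increases. In the list of matrix proteases and their inhibitors 10 of 32 measured genes were higher and 4 lower, with a median log2 fold change of 0.65. Mmp3 (stromelysin) had 97 counts in shControl D7, 4722 in shNFIB D7 and 311 in shMLL1 D7, a 50.2-fold difference (41.1 to 62.0). Mmp13 (collagenase) had 13, 457 and 15 counts and was 36.3-fold higher (21.0 to 68.6). At D0 Mmp3 had at most 53 counts in any line, and Mmp13 had 5 counts in shControl, 0 in shNFIB and 132 in shMLL1. Ctsk, a collagen-degrading cathepsin, was 7.12-fold higher and Adamts5, an aggrecanase, 2.94-fold higher. The inhibitor Timp3 was also higher, 3.28-fold, whereas Timp4 was 4.64-fold lower. Adamts8 and Adamts15, which lie beside each other on chromosome 9, had 118 and 633 counts in shControl D7 and 0 and 7 in shNFIB D7.

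A further group was higher in shNFIB than in shControl on both days. Heph (hephaestin), a copper ferroxidase of iron export, had 33 counts in shControl D0, 1005 in shNFIB D0, 38 in shControl D7 and 1329 in shNFIB D7, against 19 and 5 in the shMLL1 libraries. It was 36.1-fold higher at D7 (26.1 to 51.2). Gm2115 had 54 and 2136 counts at D0 and 88 and 2501 at D7. Thy1 (CD90), a surface marker of mesenchymal cells, was 6.09-fold higher (5.66 to 6.55) and Alcam (CD166) 6.31-fold higher (5.62 to 7.10). Maob, a monoamine oxidase, had 252 and 1896 counts at D7. Tfec, a transcription factor, differed at D7 only, with 93 counts in shNFIB D7 and at most 1 in any other library, at least 32.0-fold higher at D7.

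Of 12 measured genes in the prostaglandin list 5 were higher and none lower, with a median log2 fold change of 0.37. Ptgs2 (COX-2), the inducible enzyme of prostaglandin synthesis, had 206 counts in shControl D7, 3933 in shNFIB D7 and 231 in shMLL1 D7, 19.7-fold higher in shNFIB (17.1 to 22.8). In shControl cells it had been at 1164 counts at D0 and in shMLL1 cells at 4668, so only the shNFIB cells still had a high level at D7. Ptgs1 (COX-1) was 3.47-fold higher, Ptgir, the prostacyclin receptor, 4.20-fold higher, and Hpgd, which breaks prostaglandins down, had 0 and 50 counts. Ptgr2, a prostaglandin reductase outside the list, was lower, with 114 and 3 counts at D7, a ratio of 36.9 (12.3 to 181), and 129 and 1 at D0.

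Complement genes also differed in both directions. Cd55 (decay-accelerating factor) had 6 counts in shControl D7 and 518 in shNFIB D7, 89.0-fold higher (40.6 to 244). C4b had 10039 counts in shControl D7, 1745 in shNFIB D7 and 1643 in shMLL1 D7, 5.58-fold lower in shNFIB (5.30 to 5.87). Serping1 (C1 inhibitor) was 2.42-fold lower. Of 18 measured genes of the list 5 (27.8%) were higher and 3 (16.7%) lower, against 7.15% and 10.7% of all members. Fmo2, a flavin monooxygenase, had 76 counts in shControl D7, 1842 in shNFIB D7 and 1268 in shMLL1 D7. Cd55, Ptgs2, Fmo2, Fn1, Lamc1 and Prg4 lie on chromosome 1, where abundant genes had a median log2 fold change of 0.48. These differences were all larger than that shift, and its part in them was not tested.

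Stress response lists had high medians at D7 and medians near 0 at D0. Of 24 measured targets of ATF4, the factor of the amino acid response, 9 were higher and 1 lower, with a median log2 fold change of 0.79 at D7 and -0.01 at D0. The amino acid transporters Slc7a1, Slc7a5 and Slc7a11 had 304, 388 and 356 counts in shControl D7 and 1802, 1990 and 1901 in shNFIB D7. In shMLL1 D7 they had 208, 203 and 227. Trib3 was 5.44-fold higher and Asns, which makes asparagine, 3.37-fold higher. At D0 Slc7a5 had 11201 counts in shControl and 11336 in shNFIB, and Asns had 8924 and 10267. For Slc7a1, Slc7a5, Trib3 and Asns the shNFIB D7 level thus stood between those of the D0 libraries and of shControl D7, while for Slc7a11 it was above the D0 level of 1261 and 1572 counts in shControl and shNFIB.

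Of 22 measured targets of NRF2, the factor of the oxidative stress response, 8 were higher and none lower, with medians of 0.70 at D7 and -0.03 at D0. Gclc, the rate-limiting enzyme of glutathione synthesis, had 3059 counts in shControl D7, 19659 in shNFIB D7 and 2112 in shMLL1 D7, 6.63-fold higher in shNFIB (6.38 to 6.89). Hmox1 (heme oxygenase) was 3.57-fold higher and Nqo1 2.22-fold higher. Of 29 genes of glycolysis and the hypoxia response 6 were higher and none lower, with a median of 0.65. Ero1l, an oxidase of protein folding, had 957 and 7032 counts and was 7.58-fold higher, Hk2 (hexokinase) was 3.03-fold higher and Slc2a1, a glucose transporter, 2.84-fold higher.

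Interferon-stimulated genes, the antiviral genes that type I interferon induces, were the list with the largest share of higher genes. Of 37 measured genes 19 were higher and 1 lower at D7, and the median log2 fold change was 1.05. At D0 the order was the reverse: 26 of the 37 were at least 2-fold lower in shNFIB, 1 was at least 2-fold higher, and the median was -2.07. Ifit1 stood at 171 CPM in shControl D0, 16.5 in shNFIB D0 and 399 in shMLL1 D0, then at 76.6 in shControl D7, 330 in shNFIB D7 and 96.0 in shMLL1 D7. Ifi44 was at 18.6, 2.22 and 295 CPM at D0 and at 29.3, 161 and 47.0 at D7. Isg15 had 1216, 42 and 14853 counts at D0 and 977, 1644 and 990 at D7, a D7 difference of 1.74-fold. The level in shNFIB cells thus went from the lowest of the lines at D0 to the highest at D7 for Ifit1, Ifi44 and Isg15, and the shMLL1 line had the highest D0 level of all 3 genes. Not every gene followed this order. Psmb8, an immunoproteasome subunit, was lower on both days, with 111 and 21 counts at D7, and Cmpk2 had 2 counts in shControl D7 and 55 in shNFIB D7 and 0 and 2 at D0. Over these genes the shMLL1 D7 values lay near those of shControl D7, with a median log2 fold change of -0.08 in a comparison that uses the same shControl D7 library.

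**Figure D4:**
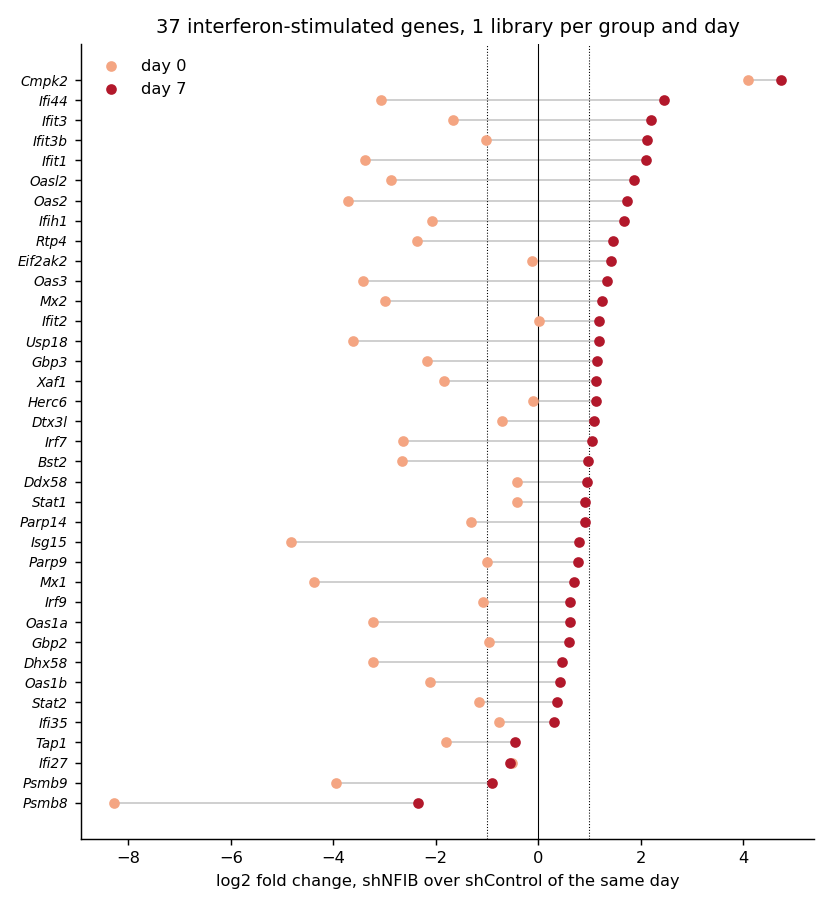
Log2 fold change of shNFIB over shControl (x axis) for each of 37 interferon-stimulated genes (y axis) at day 0 and day 7, with dotted lines at 2-fold. Each point compares 1 library with 1 library. At day 0 most points lie left of 0, with a median of -2.07, and at day 7 most lie right of 0, with a median of 1.05.

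Genes of cell division had lower summed levels in both D7 libraries than at D0. Of 52 genes of G2 and M phase 7 were lower and none higher, with a median log2 fold change of -0.46, where the D0 median had been 0.59. The share of lower genes, 13.5%, was near the 10.7% of all members. Cenpa, a centromeric histone, had 759 and 235 counts at D7 and 3016 and 3699 at D0, and Birc5 (survivin) had 878 and 329 at D7. Mki67 had 563 and 463. Of 42 S phase genes 5 (11.9%) were lower and 1 higher, also near the share of all members. The inhibitor Cdkn1a (p21) was 2.49-fold higher at D7 (2.41 to 2.58), with 4846 and 11712 counts. Of 21 genes of sterol synthesis 3 were lower and none higher, among them Idi1 with 293 and 99 counts.

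By difference in CPM among genes past 2-fold, the largest increases were in Selenop, a selenium transport protein, with 101806 and 212451 counts, and Ctla2a, a cathepsin inhibitor, with 39173 and 126148. Scaled by total counts alone, the log2 fold change of Selenop was just under 2-fold, at 0.997. At D0 Ctla2a had 12 counts in shControl and 273 in shNFIB, and Selenop had 7478 and 6357. Glul (glutamine synthetase), which glucocorticoids induce, was 3.96-fold higher, Ly6a (Sca-1), a stem cell surface antigen, 4.22-fold higher and Sqstm1, an autophagy receptor, 2.22-fold higher. Among the largest decreases were the mitochondrial mt-Nd1 with 359742 and 157568 counts, the noncoding RNA Neat1 with 180302 and 83933, and Cst3 (cystatin C) with 84226 and 33970. Gpx4, an enzyme that protects membrane lipids, was 4.15-fold lower and Il1rn, the interleukin 1 receptor antagonist, 2.97-fold lower, and both differed alike at D0. All 12 measured mitochondrial mRNAs were below 0 at D7, 3 of them by at least 2-fold, with a median log2 fold change of -0.70. The same median was 0.38 at D0. Mitochondrial transcripts made up 7.77% of counts in shControl D7, 4.78% in shNFIB D7 and 5.71% in shMLL1 D7.

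Genes that did not change with time in control cells also differed between the lines. Of 5783 members that moved by less than 0.5 on the log2 scale between shControl D0 and D7, 234 (4.05%) were higher and 238 (4.12%) lower in shNFIB D7. The time course and the knockdown comparison use the same shControl D7 library, so nothing is read from how these sets overlap. Meox2, a homeobox factor of muscle and vessel, had 74 and 85 counts in shControl D0 and D7 and 8 and 0 in shNFIB, at least 27.5-fold lower at D7. It was also low in shMLL1, with 7 and 3 counts. Hdx had 85 and 91 counts in shControl, 1 and 1 in shNFIB and 67 and 80 in shMLL1, a D7 ratio of 88.2 (15.4 to 3524). Stard8 had 646 and 452 counts in shControl, 360 and 39 in shNFIB and 83 and 34 in shMLL1. A few genes had no count in either shControl library. Gm48395, a noncoding gene, had 465 counts in shNFIB D0 and 235 in shNFIB D7 and 0 in the other 4 libraries.

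The D0 pair of libraries shares no library with the D7 pair and gives the nearest check on it. Both pairs come from the same cell lines, so an effect of the knockdown and a fixed difference between the lines cannot be told apart. At D0 815 of 14143 genes with at least 20 counts (5.76%) were higher and 714 (5.05%) lower, and of the 14964 D7 members 6.13% were higher and 5.65% lower at D0. Of the 908 higher D7 genes with at least 20 counts at D0, 314 (34.6%) were higher at D0 as well and 41 (4.52%) lower. Of the 1066 lower D7 genes, 342 (32.1%) were lower at D0 and 28 (2.63%) higher. Among the 11617 genes within 2-fold at D7 the D0 shares were 2.78% higher and 1.91% lower. Gas6, Epas1, Heph, Gm2115 and Eln belonged to those that differed the same way on both days, and Igf1, Runx2, Spp1, Gclc and Ero1l to those within 2-fold at D0.

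A fit over all 6 libraries with terms for line and day tested the difference between shNFIB and shControl averaged over the days. A gene can pass with a difference on 1 day, as Cfd did with no count at D0 (edgeR adjusted p = 0.027). With edgeR's quasi-likelihood test on 2 residual degrees of freedom and a false discovery rate of 5%, 19 of 16742 genes (0.113%) were higher and 51 (0.305%) lower. All 19 and 50 of the 51 were also past 2-fold at D7. The spread in this test is that of a line's difference between days and not of replicate cultures. The counts depended on the fit: from 0 to 341 genes higher and from 0 to 347 lower across its alternatives. Among the lower genes were Gas6 (log2 fold change -10.98, SE 0.74, edgeR adjusted p = 0.0082), Wfdc18 (-5.40, SE 0.47, adjusted p = 0.016) and Faah, which degrades endocannabinoids (-4.07, SE 0.36, adjusted p = 0.016). Plpp3, a lipid phosphatase, had 2209 and 531 counts at D0 and 11285 and 1397 at D7, and Pde5a, a cyclic GMP phosphodiesterase, 2437 and 439 at D0 and 1425 and 251 at D7. Among the higher genes were Gm2115 (5.06, SE 0.28, edgeR adjusted p = 0.0047), Maob (3.07, SE 0.27, adjusted p = 0.016), Etv1, Thy1, Alcam, Ptgs1 and Angpt1. Nfib itself did not pass (edgeR adjusted p = 0.12), and neither did Dlx5, Igf1, Mmp3 or Ptgs2.

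The differences were not even along the genome. Among 9698 protein-coding genes with at least 100 counts in all 6 libraries the median log2 fold change was 0.12 at D7. On chromosome 1, with 558 of these genes, it was 0.48 at D7 and 0.41 at D0, and in shMLL1 over shControl 0.12 and -0.03. Along chromosome 1 the medians of 20 Mb windows ranged from 0.35 to 0.83 at D7 and from 0.36 to 0.56 at D0. On chromosome 10 the median was -0.20 at D7 and -0.22 at D0. In shMLL1 over the same shControl libraries it was -0.23 and -0.21. There chromosomes 14 (-0.24 and -0.27) and 17 (-0.25 and -0.25) were lower still, and the median over all these genes was -0.07 and -0.11. Of the members on chromosome 1 18.5% were higher, and of those on chromosome 10 20.3% were lower. Igf1, Cfd, Gpx4 and Enpp1, all lower, and Timp3 and Dcn, both higher, lie on chromosome 10. Heph, Maob and Phex lie on the X chromosome, where 12.5% of members were higher. DNA content was not measured, and the part of the chromosome in each difference was not tested. With chromosome 1 left out 910 genes were higher and 1544 lower.

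**Figure D5:**
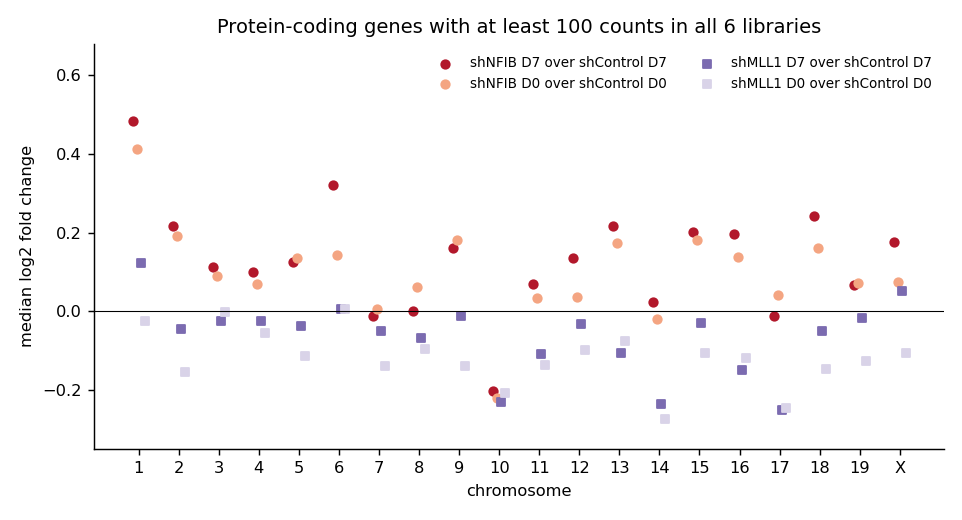
Median log2 fold change (y axis) of protein-coding genes with at least 100 counts in all 6 libraries, by chromosome (x axis), for shNFIB and shMLL1 over shControl at each day, 1 library per group. Chromosome 1 stands highest in both shNFIB comparisons, at 0.48 and 0.41, and chromosome 10 lies below 0 in all 4.

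Transcript length moved with the differences as well. Over the same genes the median log2 fold change at D7 was -0.48 for 152 genes with under 1 kb of exons and 0.30 for 3420 genes with over 6 kb, and at D0 it was -0.31 and 0.23. In shMLL1 over shControl it was -0.35 and 0.09 at D7, but ran the other way at D0, at 0.34 and -0.24. The 81 ribosomal protein genes, which are short, had a median of -0.26 at D7 and -0.45 at D0. In shMLL1 over shControl their median was -0.24 at D7 and 0.50 at D0. When each length class was centred on its median, 1260 genes were higher and 1317 lower, in place of 1070 and 1603. The counts of the adipocyte list stayed at 2 higher and 14 lower and those of the osteoblast list at 2 and 7, while the lower genes of the G2 and M phase list went from 7 to 3. Centred on chromosome medians instead, the adipocyte list held 1 higher and 13 lower genes and the osteoblast list 3 higher and 7 lower.

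The labelled cell type was checked against its markers. All 12 mesenchymal markers were measured, with a summed level of 8484 CPM in shControl D7 and 8776 CPM in shNFIB D7. None of 7 skeletal muscle markers was measured, and their sums were 0.0656 and 0 CPM. Of the markers of other cell types 2 of 6 endothelial, 2 of 7 leukocyte, 1 of 6 epithelial and 2 of 8 neural genes were measured. Their summed levels were 3.51 and 6.56 CPM for endothelial, 8.43 and 4.53 for leukocyte, 1.18 and 0.203 for epithelial and 2.56 and 1.39 for neural genes. Pecam1, Cdh5, Ptprc, Epcam and Rbfox3 were below 20 counts in both D7 libraries. Of 13 contractile genes of smooth muscle 4 were lower and 1 higher, among them Mylk with 2529 and 770 counts.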

How the data were processed

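RNA-seq libraries of the 6 conditions were made with a TruSeq kit and read as paired ends of 100 bp. Per the methods and the submitters' processing notes, the authors removed adapters (Trimmomatic 0.39), mapped the reads to the mm10 genome (HISAT2 2.2.1), kept alignments with a mapping quality above 30 (SAMtools 1.12), removed PCR duplicates and counted reads per gene with HTSeq (0.11.1). The deposited values are raw counts per gene. The annotation release and the strand setting are not given in the sources used here, so genes that overlap, antisense partners and near-identical family members may share or lose reads. This concerns many of the genes named, for example Nfib, Heph, Negr1, Igf1, Runx2, Fgfr2, Gas6, Selenop, Fmo2, the Ifit and Oas genes, Ctla2a and Gstm7.

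From these counts, TMM factors over all 6 libraries (edgeR 4.0.16, R 4.3.3) gave CPM and log2 fold changes with a prior count of 0.125. A gene needed 20 counts in at least one D7 library. A call was a difference of at least 2-fold, with exact Clopper-Pearson 95% intervals (scipy 1.17.1). These cover counting error only. A fold against a library at 0 was computed against 3 counts in that library. List medians were the same with such genes at that bound. The 2-day test was a quasi-likelihood fit with line and day, adjusted by the Benjamini-Hochberg method, and DESeq2 (1.42.0) was an alternative. Symbols, gene types and positions came from GENCODE M21 (GRCm38), which had no entry for 10 members, and promoter windows from RefSeq (GRCm38.p6). Genes were named by a fixed rule: Nfib, the protein-coding genes whose interval lay farthest from 0, the largest CPM differences, genes flat with time in shControl, noncoding genes, and members of gene lists. The members, gene lists and rules were chosen with earlier results of these data known. Some genes that these rules name are not reported here. Scripts were tested on simulated data.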

Additional observations from a re-analysis of the deposited data

Results flagged for a closer look

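3 results went in opposite directions on the 2 days, with 1 library per group and day, and the difference between the days was not tested. The median log2 fold change of the 37 interferon-stimulated genes was 1.05 at day 7 and -2.07 at day 0. For the 52 genes of G2 and M phase it was -0.46 at day 7 and 0.59 at day 0. Mmp13 had a log2 fold change of 5.17 at day 7 and -5.35 at day 0, the latter from 5 counts in shControl and 0 in shNFIB, which lies near the limit of detection.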

How the results depend on the processing

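No paired analysis was possible because the labels give no replicate numbers and each condition has 1 library. The 1070 higher and 1603 lower genes stayed within 1.5 times under DESeq2 size factors (984 and 1697), total counts alone (873 and 1862), TMM over the D7 libraries, a minimum of 10 counts, a prior count of 2, protein-coding genes alone, thinning to the shallower library and, added after seeing the data, centring by chromosome (1019 and 1569) or exon length, or leaving out chromosome 1. Scaling by total counts alone moved the median of all genes by -0.11. Other settings moved the counts: 3453 and 5911 with at least 1 count, 669 and 738 with the whole interval past 2-fold, 638 and 807 by an exact test at an assumed biological coefficient of variation of 0.2 and 76 and 151 at 0.4, and, for lower genes, 778 with at least 100 counts. Other scalings were run for Nfib and the genes named for their interval or CPM difference. These genes were chosen for large differences and the scalings shifted log2 values little, so none of the fold changes could reverse and none did. Of 213 values, 36 lay outside the gene's counting interval. With at least 100 counts the median of the osteoblast list went from -0.98 to -0.58, of the cartilage and tendon list from -0.88 to -0.40, of the IGF list from -0.34 to 0.41 and of the imprinted list from -0.07 to 0.61. Of the D7 higher and lower genes with at least 20 counts at D0, 24.1% and 20.4% had their whole D0 interval past 2-fold the same way, in place of 34.6% and 32.1% by value, and of higher genes with at least 100 counts 30.7% did so by value. The 2-day test gave 291 higher and 302 lower genes from the 4 shControl and shNFIB libraries alone, 341 and 347 from all genes with at least 1 count, 297 and 318 by DESeq2's Wald test, and 0 and 0 with no term for day, where 437 genes had an unadjusted edgeR p under 0.05. The cause was not tested. Without replicates, no setting measures the spread between cultures.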

Other observations

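Genes of axon guidance, which also act in bone and vessel growth, held 10 higher (25.6%) and 5 lower (12.8%) genes of 39 measured. Among all members 7.15% were higher and 10.7% lower. Robo2 and its ligand Slit3 were both higher, with 39 and 65 counts in shControl D7, 503 and 600 in shNFIB D7 and 302 and 497 in shMLL1 D7. Sema6d had 13 and 100 counts in the shControl and shNFIB libraries and Epha4 7 and 42. Plxnb1, a semaphorin receptor, was 4.29-fold lower (3.84 to 4.81). Of 34 integrins and adhesion receptors 5 were higher and 6 lower, with Itga1 4.14-fold lower and Itgb4 3.99-fold lower.

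Chemokines and cytokines were called in equal number, 8 higher (22.9%) and 8 lower (22.9%) of 35, against 7.15% and 10.7% of all members. Ccrl2 had 402 and 16 counts and Il18 153 and 6, while Il6 had 12 and 44 and Cxcl10 19 and 80. Of 13 antigen presentation genes 3 were higher, among them B2m with 32369 and 63150 counts and H2-T23 with 2553 and 6649, and 2 were lower. B2m was past 2-fold by a log2 fold change of 1.01, and at 0.97 under DESeq2 size factors and 0.90 under total counts alone it was not. Of 13 imprinted genes 2 were higher and 4 lower: Dlk1 had 98 and 0 counts, Igf2 42 and 0, Peg10 115 and 30, and Ndn 302 and 1176. Among 47 patterning transcription factors 4 were higher and 4 lower, with Pax3 at 94 and 1 counts and Osr1 at 1786 and 3953, and 1 of 9 measured Hox genes was lower, Hoxa2 at 1279 and 516. No gene of 7 measured in the hedgehog list reached 2-fold. In the noncoding class, 2610035D17Rik had 678 and 29 counts and Gm5886 had 1169 and 107.

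The remaining lists were close to the background shares or small. The TGF-β list had 2 of 21 genes higher and none lower, Notch 1 of 10 higher and 2 lower, the glucocorticoid response 3 of 18 higher and 1 lower, and retinoid genes 1 of 11 higher and 2 lower. YAP and TAZ targets had 2 of 16 higher and none lower, small leucine-rich proteoglycans 2 of 10 higher and none lower, with Dcn (decorin) at 1702 and 7856 counts, and CDK inhibitors and D cyclins 1 of 12 higher. Of the 12 mesenchymal markers 2 were higher and 1 lower.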
